A study of Mus musculus with 4 samples.

Results

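The transcripts examined here encode the DNA replication machinery, that is the proteins that mark replication origins, unwind the DNA, copy it and supply its building blocks. The 49 genes were chosen by symbol from the deposited count table of 55421 genes, and all 49 were present and passed the filter on low counts, among 20232 genes tested. Primary cultures of mouse spermatogonia (SSC culture) were established from testes of CD1 pups at 6 days of age and kept on mouse embryonic fibroblast (MEF) feeder cells that had been mitotically arrested by irradiation. In the Veh group cells stayed in complete spermatogonial culture medium, and in the NRRA group they received nutrient restriction medium, of which 90% was balanced salt solution, together with 100 nM retinoic acid. The treatment lasted 48 h by the study's methods. Both groups shared the CD1 background and the feeder cells, and the labels give N2 supplement, GDNF and bFGF for the culture of both, but by the study's media list the salt solution replaced most of the complete medium in NRRA and so also diluted these factors. Each group had 2 libraries, 4 in all, which the study's methods describe as biological replicates, and the labels do not say which culture or animals each library came from, so that p-values measure the spread between these libraries. No RA-only or restriction-only library of this background was analysed here, so the effects of fewer nutrients, of less GDNF, bFGF and N2 and of retinoic acid cannot be told apart.

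Replication of the genome starts with the origin recognition complex, on which CDC6 and CDT1 load the MCM2-7 helicase ring, a step called licensing. The kinase CDC7 with its partner DBF4 then fires the origin, and CDC45 and GINS join the ring to form the active helicase. DNA polymerase alpha with its primase starts the new strands, and DNA polymerases epsilon and delta extend them with the sliding clamp PCNA. Spermatogonia replicate their DNA in each mitotic cycle, and germ cells pass through a last round of replication just before meiotic prophase.

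Total counts per library lay between 28022265 and 31604769, and 20232 genes were tested with edgeR's quasi-likelihood test. Levels are CPM, read counts divided by a library size scaled with the TMM method, fold changes are NRRA over Veh on the log2 scale, and a gene is said to have risen or fallen when its Benjamini-Hochberg adjusted p over all tested genes was under 0.05. Stra8, a gene induced by retinoic acid, stood at 9.62 and 10.1 CPM in the Veh libraries and at 1864 and 1853 CPM in the NRRA libraries. All 8 markers of undifferentiated spermatogonia fell, with a median log2 fold change of -2.80, and Gfra1, the GDNF receptor subunit, fell least (log2 fold change -1.38, adjusted p = 3.57e-20). Nanos2, an RNA-binding regulator of the stem cell state, had 145 and 163 counts in the Veh libraries against 0 and 3 counts in the NRRA libraries, at least 56.4-fold lower against a floor of 3 counts per library, and the list's median was the same with Nanos2 at this bound. Of 12 germ cell markers 8 rose and 3 fell, between Tdrd1 at -0.45 and Sohlh1 at 0.94, while over all tested genes 27.9% rose and 28.4% fell. Only 2 fell with RLE size factors, without the filter on low counts, without robust estimation and in DESeq2, and 1 under library size scaling. DESeq2 and the filter of at least 1 CPM in a group gave 7 that rose. Some fits that left out 1 library also lost a lower call. Ddx4, the germ cell RNA helicase, was at 273 and 268 CPM in the Veh libraries and at 271 and 278 CPM in the NRRA libraries. Of 24 fibroblast feeder markers 20 fell and 3 rose, between Timp1 at -1.52 and Fap at 3.73, and their summed level was 11921 and 11794 CPM in the Veh libraries against 9079 and 8863 CPM in the NRRA libraries, with no marker at 0. Of 8 Sertoli cell markers 5 could be tested, of which 2 rose, Clu (2.82) and Inha (0.53), and 1 fell, Sox9 (-1.59). DESeq2 made only 1 higher call. Leaving out 1 library could also end a higher call or add a lower one. Fshr, a defining marker, was at 0 counts in every library, which allows up to 0.111 CPM, and the list summed to 45.1 and 48.97 CPM in Veh and 79.1 and 77.2 CPM in NRRA. Without Clu the other 7 markers summed to 36.98 and 40.6 CPM in Veh and to 20.2 and 19.96 CPM in NRRA, so the direction of the sum rests on Clu. In such bulk RNA fewer cells of a type and less RNA per cell cannot be told apart, and the part of the lower feeder markers in the replication results was not tested.

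The replication genes changed by small amounts and in both directions. Of the 49 genes 24 fell and 11 rose, and 14 did not pass the test. Over all tested genes 28.4% fell and 27.9% rose, and among the 10194 tested genes whose mean Veh level lay within the range of the replication genes 39.0% fell and 32.9% rose. In total 71.4% of the replication genes passed the test, close to the 71.8% of genes in the same range of levels. The median log2 fold change was -0.08 (SD 0.0070 when each NRRA library is set against each Veh library, 4 values), compared with 0.00029 over all tested genes. Regardless of sign, the median gene of the 49 moved by 0.15 on the log2 scale, against 0.24 for genes in the same range of levels and 0.33 for all tested genes. Of the 49 genes 39 changed by less than 1.25-fold in the fitted value and 48 by less than 1.5-fold. Only Mcm10, which fell, passed 1.5-fold together with the test, whereas 12.0% of all tested genes fell and 11.8% rose by that much, and 10.6% and 6.16% of those in the same range of levels. In 27 genes both NRRA libraries lay below both Veh libraries and in 15 both lay above, and in 7 the groups overlapped. Over all tested genes 38.6% lay below and 38.1% above in this way, and 46.4% and 39.6% in the same range of levels. Summed over the 49 genes, the level was 6030 and 6071 CPM in the Veh libraries and 5719 and 5709 CPM in the NRRA libraries, a difference of -5.57% between the means. The sum over all tested genes on this TMM scale differed by -6.04%, so that the replication genes made up nearly the same portion of the counts in both groups.

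These counts depend on the scaling. The TMM factors were 0.969 and 0.970 in the Veh libraries and 1.03 in both NRRA libraries, and scaling by library size alone moves the median of all tested genes by 0.0898 on the log2 scale. On that scale 16 replication genes rose and 12 fell, and their median was 0.0097, while the portion of all calls that were higher went from 49.6% to 60.3%. Of the 35 genes that rose or fell, 21 kept their call in all 11 alternative fits, 9 of them higher (Gmnn, Cdc45, Gins2, Pola2, Pold3, Pole, Pole2, Rfc2 and Fen1) and 12 lower (Orc4, Mcm5, Mcm6, Mcm7, Mcm9, Mcm10, Gins3, Cdc7, Rrm1, Rrm2, Tk1 and Tyms). All fits used the same deposited counts, so a kept call says nothing about how reads of shared stretches were assigned. Such stretches cover 67.3% of the exon bases of Gins2 and 84.2% of those of Fen1.

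**Figure D1:**
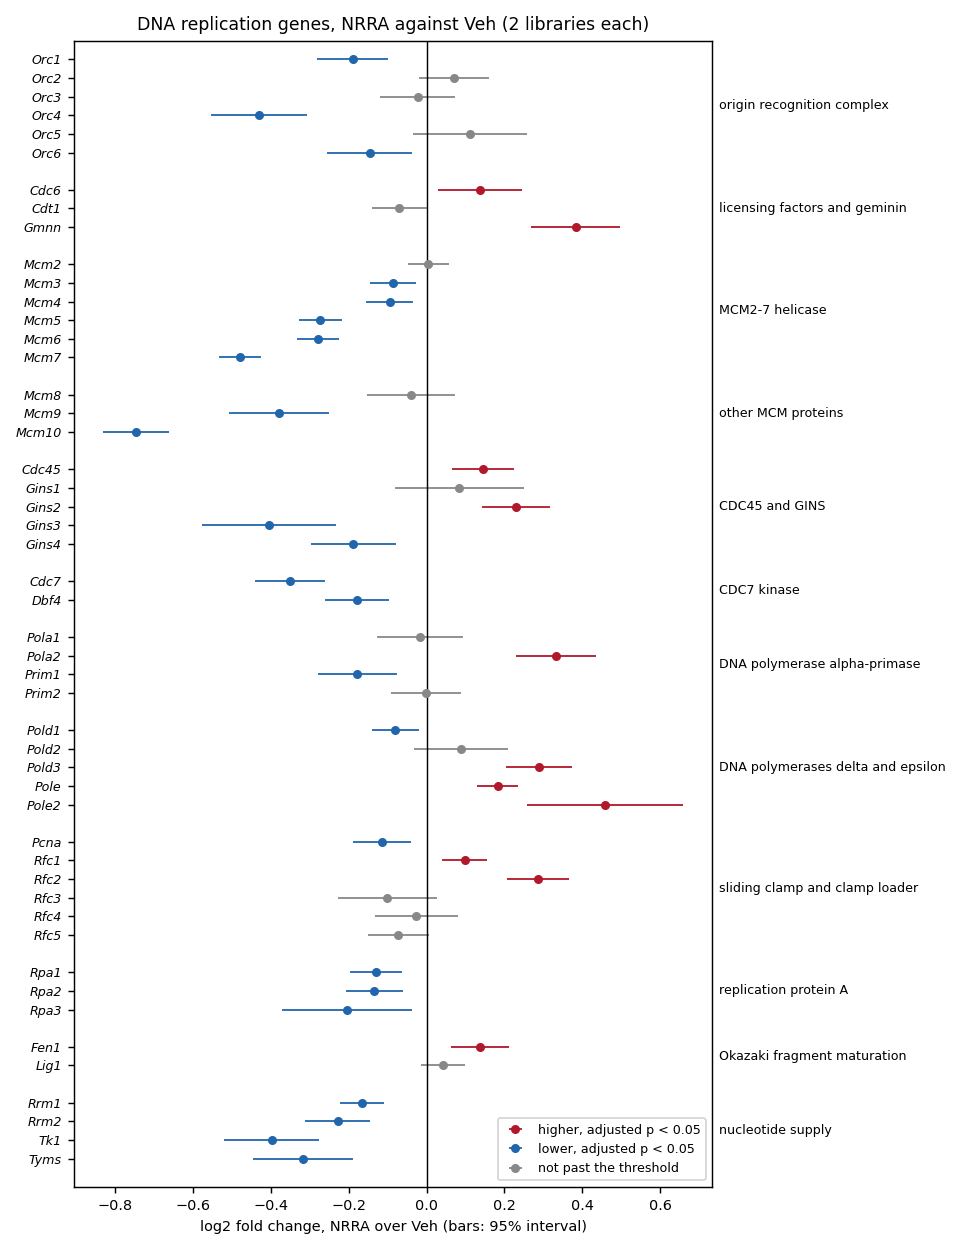
Log2 fold change of each replication gene, NRRA over Veh (x axis), by role (right), with 95% intervals from edgeR; red, blue and grey points mark higher, lower and no call. Of the 49 points 44 lie within 0.4 of 0, Mcm10 is lowest at -0.75 and Pole2 highest at 0.46; with library size alone as the scaling every point moves up by about 0.09, and Mcm3 and Pold1 are the 2 called genes whose sign then flips.

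**Figure D2:**
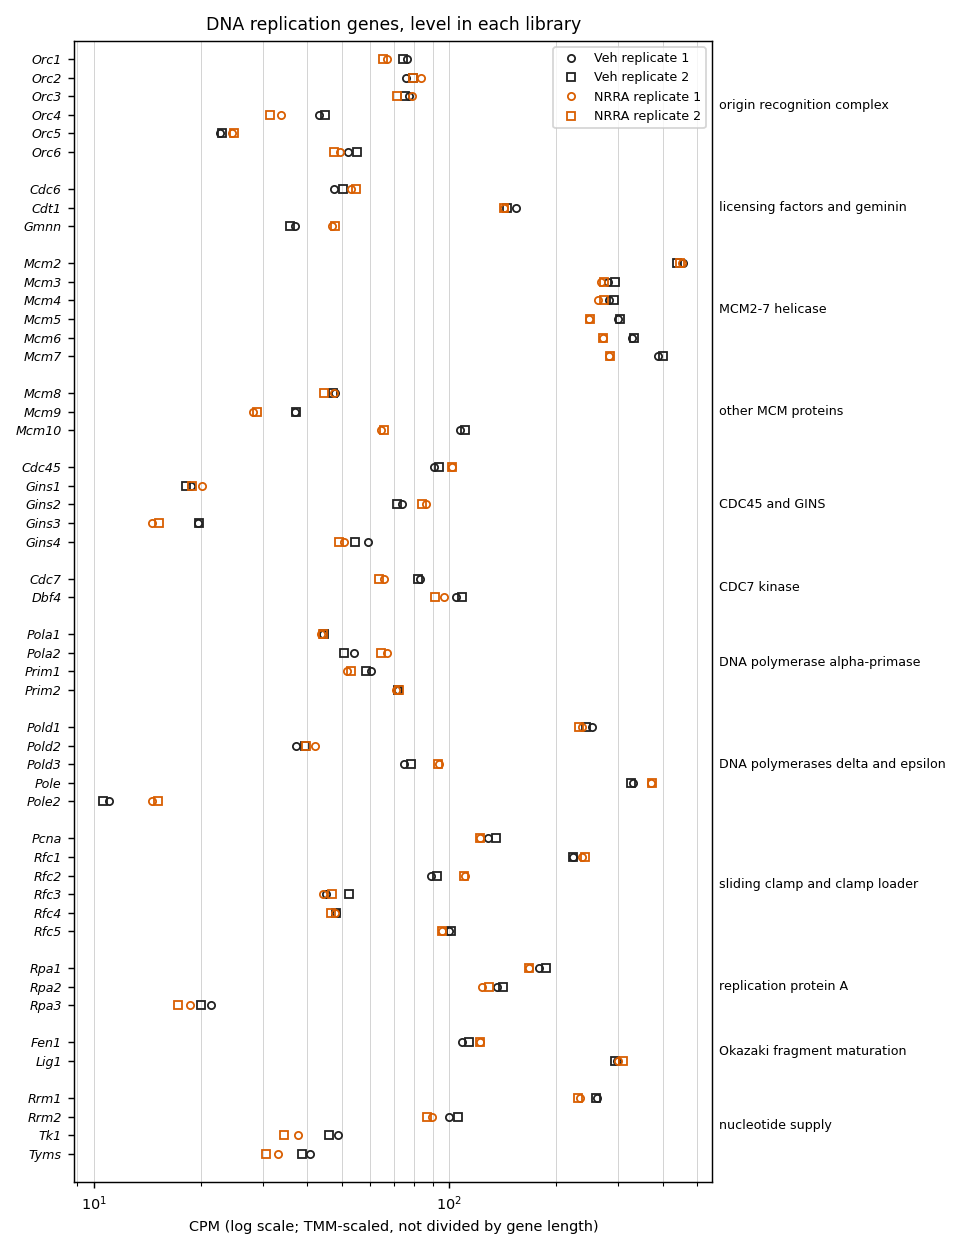
Level of each replication gene in each of the 4 libraries, in CPM on a log axis that is TMM-scaled and not divided by gene length. Circles and squares are replicates 1 and 2, black is Veh and orange NRRA. The libraries of a group lie close together, as for Mcm7 (388 and 400 CPM against 282 and 284 CPM).

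The origin recognition complex is the loading platform at origins, and its genes were lower in 3 of 6 cases. Orc4, an ATPase-like subunit of the complex, was at 43.1 and 44.7 CPM in the Veh libraries and at 33.7 and 31.3 CPM in the NRRA libraries (gene ENSMUSG00000026761, GRCm38 chr2:48902824-48950277, minus strand). Both NRRA libraries were below both Veh libraries, and Orc4 fell with a log2 fold change of -0.43 (SE 0.060, adjusted p = 7.72e-07, edgeR). Orc1, the ATPase subunit that recruits CDC6, fell by 0.19 on the log2 scale and Orc6 by 0.15. Library size scaling ended the calls of both (adjusted p = 0.0559 for Orc1 and 0.375 for Orc6). The call of Orc6 was also lost without Veh replicate 2 (adjusted p = 0.184), without NRRA replicate 2 (adjusted p = 0.143) and in DESeq2 (adjusted p = 0.164). Orc5, another ATPase subunit, was at 22.7 and 23.0 CPM in Veh against 24.5 and 24.9 CPM in NRRA, and its log2 fold change of 0.11 (95% interval -0.036 to 0.26), the highest fold change of the group, did not pass the test. Orc2 at 0.07 and Orc3 at -0.02 did not pass either, and for both genes the groups overlapped. With library size scaling Orc2 and Orc5 passed as higher, and the sign of Orc3 flipped. Of the exon bases of Orc2, 29.8% overlap Nif3l1, and 10.8% of those of Orc1 overlap Gm12743, so their counts depend on how reads of shared stretches were assigned.

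Of the licensing factors and their inhibitor, geminin moved most. Gmnn encodes geminin, which binds CDT1 and blocks a second licensing of the same origin. Its level was 36.8 and 35.8 CPM in the Veh libraries and 46.9 and 47.7 CPM in the NRRA libraries (ENSMUSG00000006715, chr13:24751845-24761923, minus strand). Both NRRA libraries lay above both Veh libraries, and Gmnn rose with a log2 fold change of 0.38 (SE 0.056, adjusted p = 1.57e-06), the second highest of the 49. Cdt1, the licensing factor that geminin binds, was at 154 and 146 CPM in Veh against 143 and 143 CPM in NRRA, and its log2 fold change of -0.07 (95% interval -0.14 to 0.0016) did not pass, with a flip of its sign under library size scaling. Without Veh replicate 2 Cdt1 passed as lower (adjusted p = 0.0113). Cdc6, the ATPase that loads the helicase together with CDT1, rose by 0.14. That call was lost without Veh replicate 1 (adjusted p = 0.196), without NRRA replicate 2 (adjusted p = 0.196) and in DESeq2 (adjusted p = 0.155). A stretch of 26.1% of its longest transcript is near-identical to Gm9430, which was at a mean of 0.104 CPM in Veh.

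The helicase ring MCM2-7 consists of 6 related ATPases in equal numbers, and 5 of the 6 genes fell while Mcm2 did not pass the test. Mcm7 was at 388 and 400 CPM in the Veh libraries and at 282 and 284 CPM in the NRRA libraries (ENSMUSG00000029730, chr5:138164583-138172422, minus strand). The groups were well apart, and Mcm7 fell with a log2 fold change of -0.48 (SE 0.027, adjusted p = 2.30e-14). A stretch of 72.8% of its longest transcript is near-identical to the pseudogene Gm5487, which was at a mean of 8.62 CPM in Veh and carried a log2 fold change of -0.61. Mcm6 fell by 0.28 and Mcm5 by 0.27 on the log2 scale. Mcm4 at -0.09 and Mcm3 at -0.09 fell by less, and under library size scaling Mcm4 was at -0.0051 and Mcm3 changed sign (0.0027). The calls of Mcm3 and Mcm4 were also lost without Veh replicate 2 (adjusted p = 0.123 and 0.0547), without NRRA replicate 1 (adjusted p = 0.133 and 0.191) and in DESeq2 (adjusted p = 0.0693 and 0.0504). Mcm2 was at 457 and 440 CPM in Veh and at 453 and 446 CPM in NRRA, so the groups overlapped, and the 95% interval of its log2 fold change (0.0046) ran from -0.048 to 0.057. Under library size scaling Mcm2 passed as higher (0.09, adjusted p = 0.00258), and its sign flipped without Veh replicate 2 or NRRA replicate 1. Divided by exon length, the 6 genes stood between 64.5 and 89.1 CPM per kilobase in Veh and between 58.2 and 74.9 CPM per kilobase in NRRA. On this measure Mcm7 was the highest of the 6 in Veh, and Mcm4 was the highest in NRRA. The order depends on the divisor, which sums all annotated exons, 6956 bases for Mcm2 against 3589 for Mcm4. In CPM, Mcm2 was the highest of the 6 in both groups, at means of 448 in Veh and 450 in NRRA.

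The MCM proteins outside the ring held the lowest fold change of all 49. Mcm10, a scaffold that helps to activate the helicase and to bring in DNA polymerase alpha, was at 107 and 111 CPM in the Veh libraries and at 64.6 and 65.5 CPM in the NRRA libraries (ENSMUSG00000026669, chr2:4989714-5012791, minus strand). Both NRRA libraries lay far below both Veh libraries, a fall of the mean by 40.4% and a log2 fold change of -0.75 (SE 0.041, adjusted p = 1.71e-14). Mcm9, which works with MCM8 in recombination repair, fell by 0.38. Of the exon bases of Mcm9, 19.2% overlap Asf1a, which itself had a log2 fold change of -0.56. Mcm8 was at 47.8 and 47.1 CPM in Veh and at 47.7 and 44.5 CPM in NRRA, overlapping groups with a log2 fold change of -0.04 that did not pass and that changed sign under library size scaling and without NRRA replicate 2.

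CDC45 and the 4 GINS subunits complete the active helicase, and these partners moved apart. Gins2 was at 73.9 and 71.4 CPM in the Veh libraries and at 86.4 and 83.9 CPM in the NRRA libraries (ENSMUSG00000031821, chr8:120578633-120589304, minus strand), and it rose with a log2 fold change of 0.23 (SE 0.042, adjusted p = 4.33e-05). Of its exon bases 67.3% overlap Gse1 on the opposite strand, a gene at a mean of 221 CPM in Veh with a log2 fold change of 0.25, so without a known strand setting the reads of the pair cannot be told apart. Gins3 was at 19.7 and 19.8 CPM in Veh and at 14.6 and 15.3 CPM in NRRA (ENSMUSG00000031669, chr8:95633453-95645060, plus strand). Both NRRA libraries lay below both Veh libraries, and Gins3 fell with a log2 fold change of -0.40 (SE 0.083, adjusted p = 0.000168). Cdc45 rose by 0.14 on the log2 scale and Gins4 fell by 0.19, and Gins1 at 0.08 did not pass. The call of Gins4 was lost without Veh replicate 1 (adjusted p = 0.0727), in DESeq2 (adjusted p = 0.0561) and under library size scaling (adjusted p = 0.117).

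Both genes of the kinase that fires licensed origins fell. Cdc7, the catalytic subunit, was at 82.96 and 81.7 CPM in the Veh libraries and at 65.6 and 63.5 CPM in the NRRA libraries (ENSMUSG00000029283, chr5:106964322-106984432, plus strand), with a log2 fold change of -0.35 (SE 0.043, adjusted p = 1.16e-07). Dbf4, its activating subunit, was at 105 and 109 CPM in Veh and at 96.9 and 91.6 CPM in NRRA, with a log2 fold change of -0.18 (SE 0.040, adjusted p = 0.000381). The groups did not overlap for either gene, and the call of Dbf4 missed the threshold under library size scaling (adjusted p = 0.0566).

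**Figure D3:**
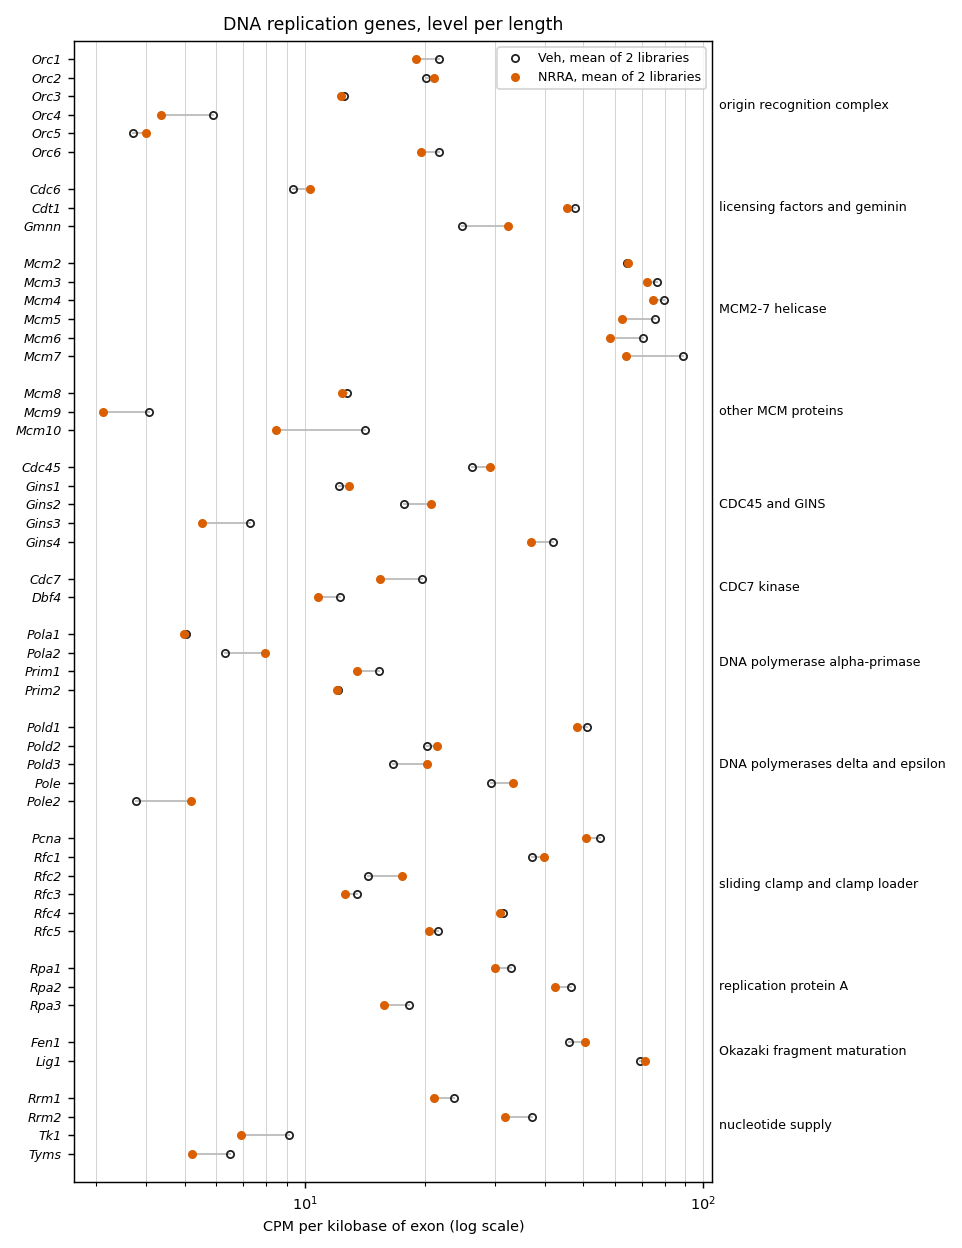
Mean level of each replication gene in CPM per kilobase of exon (log axis), Veh as open and NRRA as filled circles, 2 libraries each. The MCM2-7 genes stand high in Veh (64.5 to 89.1), while Orc5, Pole2 and Mcm9 lie at the low end (3.70, 3.77 and 4.06 in Veh). The length sums all annotated exons of a gene, so the order of genes depends on the annotation.

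DNA polymerase alpha with its primase starts each new strand with a short primer. Its accessory subunit gene Pola2 was at 54.0 and 50.5 CPM in the Veh libraries and at 67.0 and 64.6 CPM in the NRRA libraries (ENSMUSG00000024833, chr19:5940542-5964202, minus strand). Pola2 rose with a log2 fold change of 0.33 (SE 0.050, adjusted p = 2.29e-06), the third highest of the 49. Pola1, the catalytic subunit, was at -0.02 with overlapping groups and did not pass. Prim1, the small primase subunit that makes the RNA primer, was at 60.2 and 58.4 CPM in Veh and at 51.7 and 53.1 CPM in NRRA and fell by 0.18. Its call was lost without NRRA replicate 1 (adjusted p = 0.0519), in DESeq2 (adjusted p = 0.0556) and under library size scaling (adjusted p = 0.129). Prim2, the large primase subunit, stood at -0.0014 (95% interval -0.091 to 0.088) with overlapping groups. The signs of Pola1 and Prim2 flipped under library size scaling.

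DNA polymerase epsilon extends the leading strand and polymerase delta the lagging strand, and 3 of their 5 genes rose. Pole2, the second subunit of polymerase epsilon, was at 11.1 and 10.7 CPM in the Veh libraries and at 14.6 and 15.2 CPM in the NRRA libraries (ENSMUSG00000020974, chr12:69201773-69228195, minus strand). It rose with a log2 fold change of 0.46 (SE 0.098, adjusted p = 0.00025), the highest of the 49 and also one of the least abundant. Pold3, an accessory subunit of polymerase delta, was at 74.7 and 78.3 CPM in Veh and at 93.6 and 93.3 CPM in NRRA and rose by 0.29 (SE 0.041, adjusted p = 1.27e-06). Pole, the catalytic subunit of polymerase epsilon, rose by 0.18. Pold1, the catalytic subunit of polymerase delta, was at 252 and 244 CPM in Veh and at 237 and 232 CPM in NRRA and fell by 0.08 (adjusted p = 0.0215), with a flip of its sign under library size scaling (0.0097). Its call was also lost without Veh replicate 1 (adjusted p = 0.171), without NRRA replicate 1 (adjusted p = 0.0513), without NRRA replicate 2 (adjusted p = 0.164), without the filter on low counts (adjusted p = 0.0568) and in DESeq2 (adjusted p = 0.123). Pold2, the regulatory subunit, was at 0.09, did not pass, and passed as higher under library size scaling. When the subunits Pole3 (0.20) and Pole4 (0.35) from the further replication genes are set beside Pole and Pole2, all 4 polymerase epsilon genes rose, a grouping made after their values were seen.

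PCNA is the ring that holds polymerases on DNA, and the RFC complex loads it. Rfc2 was at 88.9 and 92.8 CPM in the Veh libraries and at 111 and 111 CPM in the NRRA libraries (ENSMUSG00000023104, chr5:134581366-134601805, plus strand), and it rose with a log2 fold change of 0.29 (SE 0.038, adjusted p = 4.52e-07). Rfc1, the large subunit, rose by 0.10, a call lost without NRRA replicate 2 (adjusted p = 0.0828). The other small subunits did not pass, with Rfc3 at -0.10, Rfc4 at -0.03 and Rfc5 at -0.07. The signs of Rfc4 and Rfc5 flipped under library size scaling and that of Rfc3 flipped without Veh replicate 2, whereas without Veh replicate 1 Rfc3 passed as lower (adjusted p = 0.00288). Pcna was at 129 and 136 CPM in Veh and at 122 and 122 CPM in NRRA and fell by 0.11 (adjusted p = 0.00835). The call of Pcna was lost without Veh replicate 2 (adjusted p = 0.128), without NRRA replicate 1 (adjusted p = 0.0525), in DESeq2 (adjusted p = 0.0872) and under library size scaling (adjusted p = 0.586). A stretch of 51.4% of its longest transcript is near-identical to Pcna-ps2, at a mean of 11.1 CPM in Veh. Of the exon bases of Rfc5 10.7% overlap Wsb2, which had a log2 fold change of -1.15, and 15.1% of those of Rfc2 and 12.7% of those of Rfc4 overlap Lat2 and Eif4a2.

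Replication protein A coats single-stranded DNA, and its 3 genes fell. Rpa1, the large subunit, was at 179 and 188 CPM in the Veh libraries and at 168 and 168 CPM in the NRRA libraries, with a log2 fold change of -0.13 (SE 0.032, adjusted p = 0.00123). Rpa3, the small subunit, was at 21.3 and 20.1 CPM in Veh and at 18.6 and 17.3 CPM in NRRA, with a log2 fold change of -0.20 (SE 0.081, adjusted p = 0.0333). Rpa2, the middle subunit, fell by 0.13. Under library size scaling the 3 calls were lost (adjusted p = 0.310, 0.301 and 0.235 for Rpa1, Rpa2 and Rpa3). Rpa2 also lost its call without NRRA replicate 1 (adjusted p = 0.0813). Rpa3 lost it without Veh replicate 1 (adjusted p = 0.167), without NRRA replicate 2 (adjusted p = 0.243), without the filter on low counts (adjusted p = 0.0538) and in DESeq2 (adjusted p = 0.231).

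Of the genes that join lagging-strand fragments, Fen1, the flap nuclease, was at 109 and 114 CPM in the Veh libraries and at 122 and 123 CPM in the NRRA libraries and rose by 0.14 (SE 0.037, adjusted p = 0.00226). Of its exon bases 84.2% overlap the antisense gene Gm10143, itself at a mean of 107 CPM in Veh with a log2 fold change of 0.14, so the value cannot be given to either gene alone. Lig1, the DNA ligase that seals the fragments, was at 298 and 293 CPM in Veh and at 299 and 309 CPM in NRRA, and its log2 fold change of 0.04 (95% interval -0.015 to 0.098) did not pass, although it did under library size scaling (0.13, adjusted p = 0.000179).

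The 4 genes of deoxynucleotide supply among the 49 fell, and these calls were kept in all 11 alternative fits. Tk1, the thymidine kinase of the salvage route, was at 48.9 and 46.1 CPM in the Veh libraries and at 37.6 and 34.4 CPM in the NRRA libraries (ENSMUSG00000025574, chr11:117815526-117826092, minus strand). It fell with a log2 fold change of -0.40 (SE 0.059, adjusted p = 2.24e-06). Tyms, which makes thymidylate anew, fell by 0.32. Rrm2, the small subunit of ribonucleotide reductase that limits its activity, fell by 0.23. Rrm1, the large subunit, was at 262 and 259 CPM in Veh and at 234 and 231 CPM in NRRA and fell by 0.17 (SE 0.028, adjusted p = 1.35e-05). Near-identical stretches in other genes cover 27.9% of the longest Rrm2 transcript and 26.7% of that of Tyms, but those other genes were under 1 CPM. Of the further replication genes with a role in deoxynucleotide supply, named after their values were seen, Dctd (-0.61) and Dtymk (-0.32) fell, whereas Dck (-0.0012), Dut (-0.08) and Rrm2b (0.18) did not pass.

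Promoters of replication genes are known targets of E2F transcription factors, which bind short words such as TTCCCGC and TTGGCGC. RefSeq promoter windows (GRCm38.p6, 250 bases before to 50 bases after the transcript start) matched 41 of the 49 genes. Both words of 7 letters were searched on both strands. At least 1 of them was found in 23 of the 41 genes (56.1%), against 7.79% of 27025 genes with a window. TTCCCGC was found in 16 genes (39.0%, against 5.29%) and TTGGCGC in 11 (26.8%, against 2.85%). Of the 36 words found, 17 lay at or after the start, 8 in the 100 bases before it, and in 2 cases (Mcm3 and Rfc1) neighbouring words on opposite strands overlapped. Base composition was not matched in this comparison. The 250 bases before the start are shown for Mcm7 and Pola1, which have the lowest and highest log2 fold changes among the 5 genes with a word in a stretch free of annotated exons, and for Mcm5, with words in capitals. The Mcm7 stretch shown lies inside the gene's annotated span, before a RefSeq start within the gene rather than at its outer end.
Mcm7 (chr5:138171267-138171516, minus strand): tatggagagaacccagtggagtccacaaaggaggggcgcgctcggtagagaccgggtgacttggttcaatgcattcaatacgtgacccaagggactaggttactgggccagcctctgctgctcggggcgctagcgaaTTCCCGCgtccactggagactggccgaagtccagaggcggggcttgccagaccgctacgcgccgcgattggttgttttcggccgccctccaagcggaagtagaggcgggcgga
Pola1 (chrX:93632156-93632405, minus strand): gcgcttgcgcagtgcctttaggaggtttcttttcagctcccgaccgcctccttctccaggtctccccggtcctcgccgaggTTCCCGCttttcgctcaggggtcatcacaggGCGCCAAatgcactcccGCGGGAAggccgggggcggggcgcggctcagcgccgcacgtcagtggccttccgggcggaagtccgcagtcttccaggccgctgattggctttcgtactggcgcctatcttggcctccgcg
Mcm5 (chr8:75109259-75109508, plus strand): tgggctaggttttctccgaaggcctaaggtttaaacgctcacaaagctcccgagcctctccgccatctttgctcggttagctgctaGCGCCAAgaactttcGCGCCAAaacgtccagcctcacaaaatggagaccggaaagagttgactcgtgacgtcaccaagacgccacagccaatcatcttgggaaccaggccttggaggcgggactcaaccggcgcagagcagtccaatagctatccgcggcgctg
Capitals written as GCGGGAA or GCGCCAA are the same words read on the opposite strand. Mcm7 has another RefSeq window that holds 2 more words, so that it carries 3 in all beside a log2 fold change of -0.48, and Pola1 carries 4, 3 of them in the stretch shown, beside -0.02. The 23 genes with a word had a median log2 fold change of -0.09, with 4 that rose and 12 that fell, and the 18 without had -0.12, with 3 that rose and 10 that fell. A word in a window is a description of its letters and shows no binding.

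**Figure D4:**
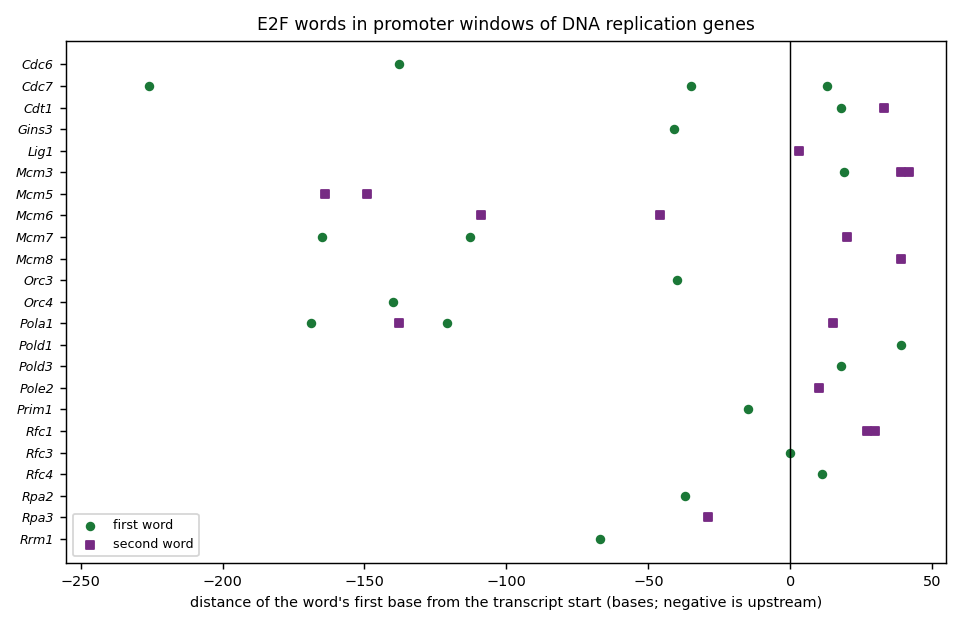
Positions of E2F words in the RefSeq promoter windows of the 23 replication genes that hold one, as distance in bases from the transcript start (x axis, negative is upstream), both strands. Circles (first word) are TTCCCGC and squares (second word) are TTGGCGC. Words spread from far upstream to just after the start, and 17 of 36 lie at or after it.

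The E2F and pocket protein genes themselves, the regulators of this promoter class, rose in 8 of 13 cases and fell in 3. E2f6, a repressor of the family, was at 91.7 and 85.5 CPM in the Veh libraries and at 52.3 and 52.6 CPM in the NRRA libraries and fell with a log2 fold change of -0.76 (SE 0.047, adjusted p = 2.06e-13). The activator E2f3 fell by 0.32 and Tfdp1, a dimer partner, by 0.09. The activators E2f1 (-0.07, adjusted p = 0.123) and E2f2 (0.02) did not pass, and the signs of Tfdp1 and E2f1 flip under library size scaling (0.0019 and 0.02). E2f5, which works with pocket proteins, was at 24.1 and 25.2 CPM in Veh and at 33.6 and 29.7 CPM in NRRA, the highest log2 fold change of the list at 0.36 (adjusted p = 0.000107). The other genes that rose were Rbl2 (0.30), E2f7 (0.22), Rbl1 (0.19), Tfdp2 (0.19), E2f8 (0.13), E2f4 (0.12) and Rb1 (0.11). DESeq2 called 3 higher and 2 lower, and 5 were higher without Veh replicate 2 and also without NRRA replicate 1, so most of the small increases depend on the test or on 1 library.

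Further genes of replication, a list of 33, also changed in both directions, but with a different balance from the 49. Of the 33 genes 13 rose and 9 fell, against 11 and 24 of the 49. Under library size scaling 17 rose and 9 fell, against 16 and 12 of the 49. Regardless of sign, the median gene of the 33 moved by 0.25 on the log2 scale, against 0.15 for the 49. The median log2 fold change of the 33 genes was 0.02. This median was 0.035 without Veh replicate 2, 0.043 without NRRA replicate 1 and 0.11 under library size scaling. Samhd1, which breaks down deoxynucleotides, had the lowest fold change, at 225 and 216 CPM in the Veh libraries against 83.5 and 78.5 CPM in the NRRA libraries (log2 fold change -1.45, SE 0.037, adjusted p = 1.39e-21). Atad5, which unloads PCNA, had the highest, at 63.6 and 61.3 CPM in Veh against 91.3 and 87.7 CPM in NRRA (log2 fold change 0.52, SE 0.044, adjusted p = 1.08e-10). Named after their values were seen, Chaf1b (-1.01), a subunit of the histone chaperone CAF-1, and Topbp1 (-0.54), which helps load CDC45, fell by more than most of the 49. Genes of the G2 and M phases rose in 10 of 20 cases and fell in 4, with a median of 0.04. In this list 70.0% passed the test, against 56.4% of all tested genes and 71.8% in the range of levels of the 49. The G2 and M phase genes lay between Bub1b (-0.30), a spindle checkpoint kinase, and Cdc25c (0.76), a phosphatase that triggers mitosis. Without NRRA replicate 2 only 6 of them rose and 3 fell.

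**Figure D5:**
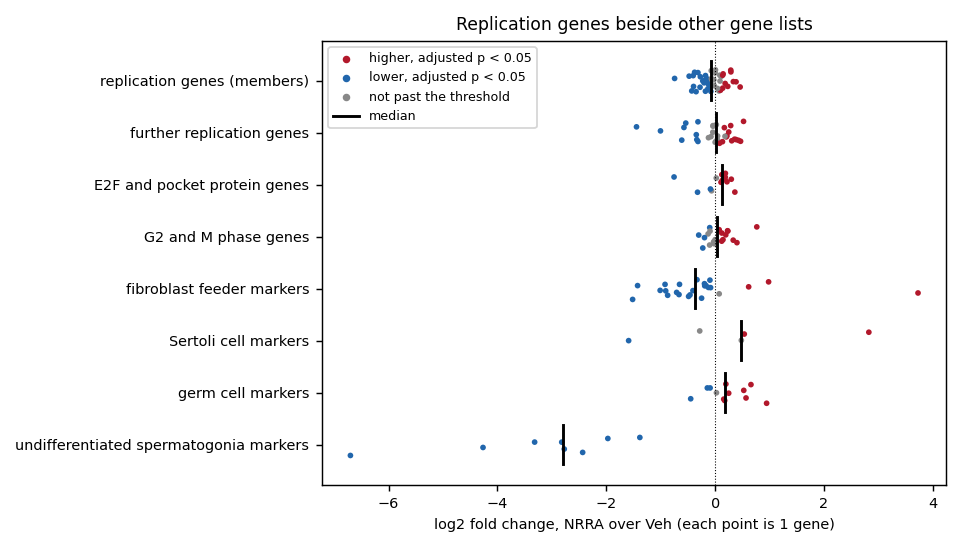
Log2 fold change, NRRA over Veh (x axis), of the 49 replication genes and of the other gene lists, 1 point per tested gene, with a black bar for each list's median; red, blue and grey points mark higher, lower and no call. The replication genes spread from -0.75 to 0.46 around a median of -0.08, and that median becomes 0.0097 with library size alone as the scaling, while the 8 undifferentiated spermatogonia markers lie at or below -1.38.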

How the data were processed

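Poly(A) RNA of 4 libraries, 2 Veh and 2 NRRA, was analysed. The authors deposited 1 table of raw read counts per gene, without normalization. The submitters' processing notes name bcl2fastq, STAR 2.6.1c, featureCounts 1.6.4 and mm10. The annotation release, the strand setting and the handling of multimapping reads are not given in the sources used here. The study's methods describe a stranded kit from Tecan, the labels an Illumina TruSeq kit. Groups and replicate numbers came from the sample titles, and columns were matched through the sample descriptions, which number the Veh libraries one higher.

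Counts were tested with edgeR 4.0.16 (R 4.3.3) with filterByExpr, TMM factors and the robust quasi-likelihood F test, adjusted by Benjamini-Hochberg over 20232 genes at a threshold of 0.05. The SE was derived from the F statistic. DESeq2 1.42.0, the study's tool, was an alternative, as were other scalings, filters, a replicate block and leaving out each library. The fit was tested on simulated data. Coordinates and exon lengths came from GENCODE M21 (GRCm38), in which 99.7% of the identifiers were found. Exon overlaps were computed from it, and near-identical stretches (at least 95% identity over 100 bases) were sought with BLAST 2.17.0. Per-kilobase levels use the summed exon length of a gene.

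Every member is named with its log2 fold change. Values of each library are given for the highest and lowest member of each role and for the 5 highest and 5 lowest of all. Of other genes the rule named Stra8, the E2F list and the extremes of each list. Beyond this rule the text names Ddx4, Fshr and Inha among the markers, and genes that share sequence with a member. Pole3, Pole4, Dctd, Dtymk, Dck, Dut, Rrm2b, Chaf1b and Topbp1 were named after their values were seen. The members and lists were chosen with earlier results of these data known. The libraries of a group differed by more than counting noise (chi-square per degree of freedom 2.45 in Veh and 1.99 in NRRA). This extra spread was small, a common coefficient of variation of 2.61% in edgeR, with 2 residual degrees of freedom. Calls on small changes rest on this small spread, and the labels do not say which culture each library came from. A count of 0 in a library allows 3 counts, 0.0921 to 0.111 CPM, for counting error only.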

Additional observations from a re-analysis of the deposited data

How the results depend on the processing

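Of 588 comparisons of a replication gene's log2 fold change between the reported fit and an alternative, 519 kept direction and call, 45 lost the call, 7 gained one and 17 changed sign. The alternatives were 11 other fits and the reported fit at an adjusted p under 0.01. This stricter threshold cannot change a fold change or its sign, and it gave 44 of the 519 and 5 of the 45. The size factors by RLE, the fit without robust estimation and the filter of at least 1 CPM in a group kept all 49. With library size only, 12 replication genes were lower, the median of the 49 became 0.0097, and the sign turned for Orc3 (0.067), Cdt1 (0.020), Mcm3 (0.0027), Mcm8 (0.050), Pola1 (0.072), Prim2 (0.088), Pold1 (0.0097), Rfc4 (0.064) and Rfc5 (0.017). This alternative moves all genes up by construction. Without the filter on low counts 11 were higher and 22 lower, the median was -0.073 and Prim2 was at 0.0061. In DESeq2 10 replication genes were higher and 16 lower, and Prim2 was at 0.0041. At an adjusted p under 0.01, 10 were higher and 20 lower.

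Leaving out 1 library at a time gave 9 to 11 replication genes higher and 18 to 22 lower, and a median between -0.083 and -0.064. The sign turned in Orc3 (-0.087 when NRRA replicate 1 was left out, 0.040 when NRRA replicate 2 was), Mcm2 (from -0.025 without Veh replicate 2, also -0.0020 without NRRA replicate 1, to 0.032 without Veh replicate 1), Mcm8 (likewise -0.086 and 0.0068), Prim2 (likewise 0.016 and -0.014) and Rfc3 (from -0.21 without Veh replicate 1 to 0.014 without Veh replicate 2). A lone library was assumed to vary like the other group. Why these values moved was not tested.

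The replicate numbers do not pair the samples (correlation of the deviations of same-numbered libraries across genes -0.011). With the replicate number as a replicate block 11 replication genes were higher and 24 lower, with all 35 calls shared, and 5772 and 5836 of all genes.

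With 2 libraries a group, the 95% interval reached 0.05 to 0.20 on either side of a log2 fold change, least in the most abundant genes.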
